A study of Rattus norvegicus with 16 samples.

Results

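The response of HCR soleus to endurance training was measured as the difference between 4 trained and 4 sedentary rats of the HCR line, 8 of the 16 arrays in the series. HCR rats come from a line bred for high treadmill running capacity, founded from N:NIH stock and taken here at generation 16. The 4 HCR trained rats were females of about 7 months that ran intervals on a treadmill at an incline of 25 degrees for 8 weeks, 5 days per week and 1.5 hours per session. Each interval lasted 8 minutes at 85 to 90% of maximal oxygen uptake, with 2 minutes of recovery at 50 to 60%. Muscle was taken 48 hours after the last session. The 4 HCR sedentary rats were females of the same line, generation and age that were not trained. The other 8 arrays held 4 trained and 4 sedentary females of the LCR line, bred for low capacity. They are used here to ask whether the response differed between lines and, in the shared fit, to estimate the spread between rats. LCR rats were of the same generation and age, and the trained ones had the same programme and sampling time. The labels give a selection test at 11 weeks of age for all rats. Each array held RNA from 20 mg of the soleus of 1 rat, so the groups rest on separate animals of 1 sex, 1 muscle and 1 time after exercise. All 31042 probe sets other than the array's 57 control probe sets were included, out of 31099, and 14217 genes had at least 1 probe set with a single gene symbol.

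The soleus is a postural muscle of the lower leg. In the rat it is built mainly of slow, type I fibres, which rely on mitochondrial respiration, with a minority of fast fibres. Endurance training is known to raise the content of mitochondria and capillaries in muscle and to shift fast myosin heavy chains from type IIB toward types IIX and IIA. Nuclear genes encode most respiratory chain subunits, while ribosomes inside the mitochondrion translate the few subunits encoded by mitochondrial DNA. Levels below are deposited log2 signals of a probe set, so a difference of 1 is a doubling of signal, and levels are compared between arrays and not between genes. In whole muscle, fewer cells of a type and less RNA per cell cannot be told apart.

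The labelled tissue was checked by slow fibre genes, which were bright on 7 of the 8 arrays. Myh7, the slow myosin heavy chain, read 14.37, 14.27, 12.05 and 14.46 on HCR trained arrays 1 to 4, against 14.50, 14.42, 14.52 and 14.39 on the sedentary arrays. Sln, sarcolipin, an inhibitor of the sarcoplasmic calcium pump, read 7.59 on HCR trained 3, the other 7 arrays lying between 12.43 and 13.40. Mybpc2, the fast form of myosin binding protein C, read 10.08 on HCR trained 3, the other 7 arrays lying between 5.13 and 5.96. HCR trained 3 therefore had less slow and more fast fibre signal than the other arrays, and the part of this in the results was not tested beyond leaving the array out.

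A sedentary array also stood apart. Ankrd1, an ankyrin repeat protein induced in strained and injured muscle, read 12.87 on HCR sedentary 2 and between 7.16 and 7.66 on the other 3 sedentary arrays. Vcan, the matrix proteoglycan versican, read 9.44 on that array against 5.73 to 5.79 on the other 3, and Cd44, a receptor for hyaluronan, 9.30 against 6.15 to 6.39. Plin5, which coats lipid droplets in oxidative muscle, read 5.59 there against 7.65 to 8.10. The 28 measured macrophage and leukocyte markers averaged 1.12 log2 units above the mean of the 8 arrays on HCR sedentary 2, between -0.21 and 0.15 on the other 3 sedentary arrays and between -0.58 and -0.02 on the trained arrays. Of 2 controls for RNA and labelling, neither separated the groups fully, but the beta-actin index nearly did. The beta-actin index, the signal of the 3′ control probe set minus that of the middle one, averaged 1.90 ± 0.35 in HCR trained and 1.18 ± 0.54 in HCR sedentary rats (SD, n = 4 each, exact permutation p = 0.0571, two-sided, with 0.0286 the smallest that 4 against 4 allow), and the groups overlapped. The GAPDH index, 3′ minus 5′, averaged 0.90 ± 0.53 in HCR trained and 0.61 ± 0.09 in HCR sedentary rats (SD, n = 4 each, exact permutation p = 0.343, two-sided). It was highest on HCR trained 2, at 1.67, with 0.48 to 0.77 on the other trained arrays. Pairs of HCR arrays correlated between 0.941 and 0.994 over all probe sets, and none were identical. Results are therefore given also without HCR trained 3 and HCR sedentary 2. These 2 arrays were picked from the same values, so passing without them is not independent support.

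Training changed the signal of 58 of 31042 probe sets, 0.187% of those tested, at an adjusted p under 0.05 in limma's moderated test. Of these 53 rose, 0.171% of those tested, and 5 fell, 0.0161%. They named 40 genes, 38 that rose and 2, Epc1 and Adcy6, that fell, while 18 probe sets had no single symbol. When each gene was taken by its brightest probe set, as in the lists below, 32 of 14217 genes passed, or 0.225%. Of the 40 genes 22 had another probe set, and in 0 of these another one passed. In 6 of the 22 another probe set had the same sign at an unadjusted p under 0.05. In all 58 the 4 trained and 4 sedentary values did not overlap, which follows from choosing them by these values. Over all probe sets 2362, or 7.61%, had no overlap. Differences ran from 0.28 upward in size, with a median of 0.64, and every adjusted p but that of Cox7a1 was between 0.0172 and 0.0486. At an unadjusted p under 0.05 there were 5498 probe sets, 17.7%, where 1552 would be expected if nothing differed. The count moved strongly with single arrays. It was 190 without HCR trained 3, 454 without HCR sedentary 4 and 58 without HCR trained 1, 3 without either HCR trained 2 or HCR sedentary 2, and 1 without any of HCR trained 4, HCR sedentary 1 and HCR sedentary 3. Without both HCR trained 3 and HCR sedentary 2 it was 29, or 0.0934%, of which 8 were among the 58. Fitting only the 8 HCR arrays left 0, with 3981 at an unadjusted p under 0.05. With the beta-actin index as covariate it was 1, and 2244 had an unadjusted p under 0.05, against 5498 without the covariate. With median centring the count was 255 and with array weights 1304. The size of the differences moved less than the count when arrays were left out singly. When any 1 HCR array was left out, no difference shrank by more than 21.8%. All 58 kept their sign, which had to be so because their groups did not overlap. Other settings could shrink a difference further. With the beta-actin index as covariate Egf went from 0.81 to 0.50, while Atxn1l stayed at 0.36.

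**Figure D1:**
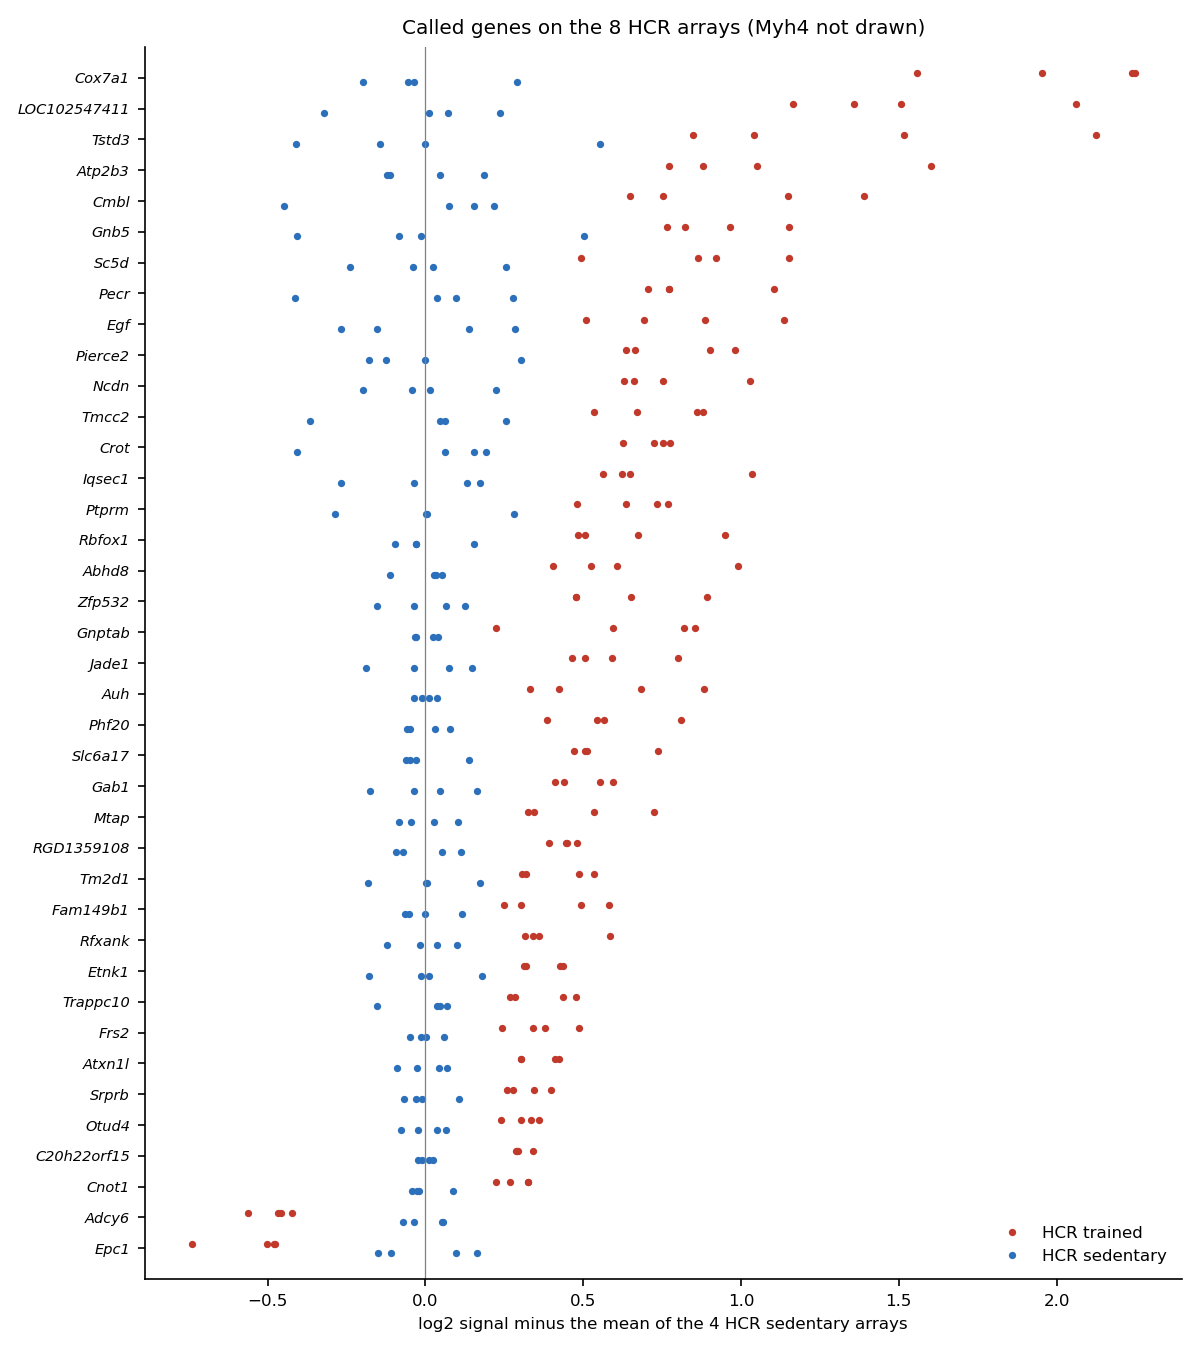
Log2 signal of 39 of the 40 called genes on the 8 HCR arrays, as the distance from the mean of the 4 HCR sedentary arrays (x axis, log2 units), 1 gene a row, red points for HCR trained and blue points for HCR sedentary arrays. In every row the red and the blue points do not overlap, Epc1 and Adcy6 at the bottom lie to the left, and Cox7a1 has the largest difference drawn, at 2.00. Myh4 is not drawn because its difference of 5.09 would compress the axis.

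Cox7a1 encodes the muscle isoform of a small subunit of cytochrome c oxidase, the last complex of the respiratory chain. It read 8.68, 8.28, 8.96 and 8.97 in HCR trained soleus, against 6.67, 6.69, 6.52 and 7.01 in HCR sedentary soleus. The lowest trained value lay 1.27 above the highest sedentary one. Cox7a1 rose by 2.00 (SE 0.22, adjusted p = 0.00526), a 4.00-fold difference in signal. It passed in 17 of 20 alternative settings, and its difference stayed between 1.92 and 2.15 when any 1 HCR array was left out. The other measured subunits of the complex did not follow in size. Over all 15 subunits and isoforms on the list the median difference was 0.13, 1 passed (0.225% of all genes did), and 3 were higher at an unadjusted p under 0.05, as were 13.3% of all genes. Without HCR trained 3 and HCR sedentary 2 the median of the 15 was 0.04, whereas the Cox7a1 difference was 1.91 (adjusted p = 0.0179).

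Myh4 encodes the type IIB myosin heavy chain, the fastest of adult rat limb muscle and scarce in soleus. Its signal was 11.08, 8.43, 13.57 and 9.98 in HCR trained rats, against 4.76, 8.03, 4.88 and 5.05 in HCR sedentary rats. All 4 trained values were the higher ones, HCR trained 3 being the highest, and among sedentary rats only HCR sedentary 2 exceeded 5.61, the 40th percentile of probe-set means. Myh4 rose by 5.09 (SE 0.87, adjusted p = 0.0475), and by 4.93 (SE 0.46, adjusted p = 0.00203) without HCR trained 3 and HCR sedentary 2. Leaving these out removed the highest Myh4 value of each group, so the smaller p is not separate support. Myh4 passed in 12 of 20 alternative settings. In LCR rats it read 4.84 to 5.80 when trained and 4.83 to 5.13 when sedentary. The other 3 sedentary values were below that percentile, in the dim range of the array, so the size of the Myh4 difference is less certain than its direction.

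The promoters of the 2 genes with the largest shifts in fibre and respiratory chain signal are shown, since both hold the E-box CAGCTG, in capitals below, which is the core site bound by MyoD and related muscle factors. Each sequence runs 5′ to 3′ on the gene's strand from 250 bases before to 50 after the RefSeq start in assembly GRCr8, at chr1:94568966-94569265 (+) for Cox7a1 and chr10:52421898-52422197 (+) for Myh4.
Cox7a1: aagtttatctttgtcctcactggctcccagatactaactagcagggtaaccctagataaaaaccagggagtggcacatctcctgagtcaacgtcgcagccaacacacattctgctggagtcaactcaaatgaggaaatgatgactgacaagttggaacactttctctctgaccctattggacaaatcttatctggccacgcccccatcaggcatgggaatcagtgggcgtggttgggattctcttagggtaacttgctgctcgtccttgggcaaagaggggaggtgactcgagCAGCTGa
Myh4: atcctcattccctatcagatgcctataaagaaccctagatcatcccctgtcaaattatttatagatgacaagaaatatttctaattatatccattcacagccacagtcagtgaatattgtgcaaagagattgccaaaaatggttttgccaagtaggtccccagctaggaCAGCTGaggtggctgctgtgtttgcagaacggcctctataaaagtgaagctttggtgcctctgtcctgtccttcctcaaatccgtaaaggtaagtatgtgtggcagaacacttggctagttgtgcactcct
The CAGCTG of Cox7a1 begins 43 bases after the first base of the transcript, within the transcribed stretch, and that of Myh4 begins 81 bases before it. Searched on both strands, CAGCTG lay in 15.1% of 33469 rat promoters of the same length and in 4 of the 33 called genes found in the table, which were Auh, Cox7a1, Myh4 and Rbfox1, or 12.1%. TATAAA was found in 14.2% of promoters and, among the called genes, in Myh4 alone, where 1 copy begins 45 bases before the start. A match is a description of the letters and not evidence of binding.

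**Figure D2:**
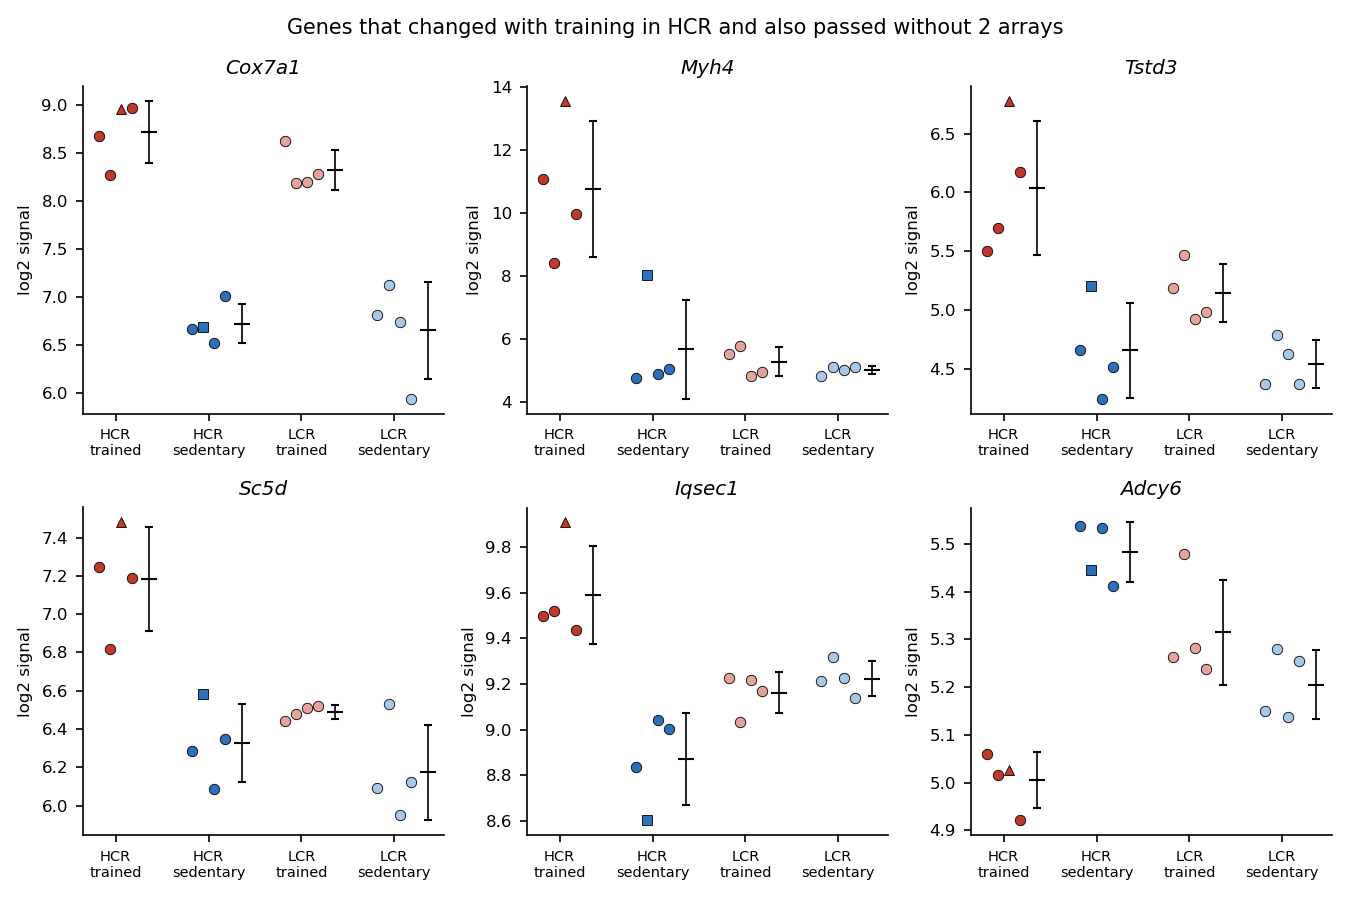
Log2 signal (y axis) of 6 genes that passed in HCR both with all arrays and without HCR trained 3 and HCR sedentary 2, in HCR trained, HCR sedentary, LCR trained and LCR sedentary rats, 1 point a rat, with the mean and SD of each group as bars beside the points. The triangle is HCR trained 3 and the square HCR sedentary 2. Cox7a1 is higher in trained rats of both lines, Myh4 is above 8 in HCR trained rats and in HCR sedentary 2 alone, and Adcy6 is lowest in HCR trained rats, at 4.92 to 5.06.

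Several genes that rose act on acyl-CoA and lipids. Crot, the peroxisomal carnitine octanoyltransferase that passes shortened acyl chains out of the peroxisome, read 8.03, 7.93, 8.08 and 8.06 in HCR trained soleus, against 7.46, 6.90, 7.49 and 7.36 in HCR sedentary soleus. All trained values lay above all sedentary values, and Crot rose by 0.72 (SE 0.13, adjusted p = 0.0475). Pecr, a peroxisomal trans-2-enoyl-CoA reductase, read 9.21, 9.21, 9.54 and 9.14 in trained rats, against 8.47, 8.02, 8.53 and 8.71 in sedentary rats, and rose by 0.84 (SE 0.15, adjusted p = 0.0475). For both genes HCR sedentary 2 was the lowest array, and without it and HCR trained 3 the differences were 0.57 for Crot and 0.61 for Pecr. Abcd2, a peroxisomal importer of very long acyl-CoA, differed by 1.07 (SE 0.31) and did not pass (adjusted p = 0.114), with 7.44 to 7.80 in trained and 5.32 to 7.00 in sedentary rats. Sc5d, a desaturase late in cholesterol synthesis, read 7.25, 6.82, 7.48 and 7.19 in trained rats, against 6.29, 6.58, 6.09 and 6.35 in sedentary rats. Sc5d rose by 0.86 (SE 0.14, adjusted p = 0.0475) and passed in 10 of 20 alternative settings, more than any called gene but Cox7a1 and Myh4. Of the 21 measured cholesterol synthesis genes Sc5d alone passed, and their median difference was 0.02. Etnk1, ethanolamine kinase, at the entry to phosphatidylethanolamine synthesis, rose by 0.37 (SE 0.07), but its other probe set had the opposite sign.

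Further enzymes and enzyme-like proteins were among the called genes, of which Auh alone was on the list of 27 amino acid breakdown genes. Auh, a mitochondrial hydratase of leucine breakdown, read 10.21, 10.56, 10.76 and 10.31 in HCR trained rats, against 9.87, 9.85, 9.92 and 9.89 in HCR sedentary rats. The sedentary values lay between 9.85 and 9.92, below all trained values, and Auh rose by 0.58 (SE 0.11, adjusted p = 0.0486). Mtap, which recovers methionine from methylthioadenosine, rose by 0.48 (SE 0.09), with 1 of its 2 other probe sets of the same sign and an unadjusted p under 0.05. Tstd3, named for a thiosulfate sulfurtransferase-like domain, read 5.50, 5.70, 6.78 and 6.17 in trained rats, against 4.65, 5.21, 4.24 and 4.51 in sedentary rats. It rose by 1.38 (SE 0.25, adjusted p = 0.0475) and passed again, at 1.32, without the 2 arrays. Cmbl, a hydrolase of the cytosol, rose by 0.99 (SE 0.17) and by 0.70 without the 2 arrays, where it did not pass.

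Signalling genes included 1 of the 2 falls. Adcy6, an adenylyl cyclase that makes cyclic AMP on stimulation by G protein coupled receptors, read 5.06, 5.02, 5.03 and 4.92 in HCR trained soleus, against 5.54, 5.45, 5.53 and 5.41 in HCR sedentary soleus. The spread within each group was small, at an SD of 0.06 in both, and Adcy6 fell by 0.48 (SE 0.06, adjusted p = 0.0208). All of these Adcy6 values were below the 40th percentile, and its other probe set, of the same sign, did not reach an unadjusted p under 0.05. Gnb5, a G protein beta subunit that pairs with RGS proteins, read 7.16, 7.11, 7.31 and 7.50 in trained rats, against 6.33, 5.94, 6.26 and 6.85 in sedentary rats, and rose by 0.93 (SE 0.16, adjusted p = 0.0475). The 35 measured genes of G protein signalling had a median of -0.08. At an unadjusted p under 0.05, 4 were higher and 4 lower, where 13.3% and 5.79% of all genes were. Atp2b3, a plasma membrane calcium pump, read 5.87, 6.15, 6.70 and 5.97 in trained rats, against 4.98, 4.97, 5.14 and 5.28 in sedentary rats. It rose by 1.08 (SE 0.19), and both of its other probe sets had the same sign at an unadjusted p under 0.05.

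Growth factor signalling was represented by a ligand and 2 docking proteins. Egf, the epidermal growth factor, read 7.69, 8.14, 7.51 and 7.88 in HCR trained rats, against 7.28, 6.73, 6.85 and 7.14 in HCR sedentary rats, and rose by 0.81 (SE 0.15, adjusted p = 0.0486). Gab1, which docks to activated tyrosine kinase receptors, read 8.02, 8.06, 7.90 and 7.87 in trained and 7.43, 7.29, 7.51 and 7.63 in sedentary rats, and rose by 0.50 (SE 0.09, adjusted p = 0.0475). Frs2, which links FGF receptors to their targets, rose by 0.36 (SE 0.07), but its other probe set had the opposite sign. Ptprm, a receptor phosphatase at cell contacts, rose by 0.66 (SE 0.12). Iqsec1, an activator of the small GTPase ARF6, read 9.50, 9.52, 9.91 and 9.44 in trained rats, against 8.60 to 9.04 in sedentary rats. It rose by 0.72 (SE 0.11, adjusted p = 0.0457), again passed without the 2 arrays, at 0.52, and its other probe set had the same sign at an unadjusted p under 0.05.

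Other members of the growth factor list had negative differences without passing. Igf2, insulin-like growth factor 2, read 9.47, 9.06, 8.62 and 9.07 in trained rats, against 10.53, 11.02, 10.46 and 9.62 in sedentary rats. The Igf2 values did not overlap, and the difference of -1.35 (SE 0.30) had an adjusted p of 0.0671. Igf1, which like Igf2 promotes muscle growth, read 8.90, 7.79, 8.28 and 8.48 in trained and 9.41, 9.69, 8.87 and 9.09 in sedentary rats, overlapping slightly, with a difference of -0.90 (SE 0.21, adjusted p = 0.0716). Without HCR trained 3 and HCR sedentary 2 the Igf1 difference was -0.73, and neither gene passed. Of 40 measured growth factors and myokines 1 passed, Egf, and 4 were higher and 5 lower at an unadjusted p under 0.05, where 13.3% of all genes were higher and 5.79% lower.

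Among the called genes were some that act on chromatin and RNA, although 0 of 33 genes on the list of chromatin and transcription regulators and 0 of 42 on that of splicing and RNA binding passed. Epc1, enhancer of polycomb 1, a subunit of the NuA4 histone acetyltransferase, read 6.13, 6.11, 6.14 and 5.88 in HCR trained rats, against 6.46, 6.78, 6.71 and 6.51 in HCR sedentary rats. Epc1 fell by 0.55 (SE 0.09, adjusted p = 0.0475), although its other probe set had the opposite sign. Jade1, a scaffold of the HBO1 acetyltransferase complex, rose by 0.59 (SE 0.10), with both other probe sets opposite in sign, and Phf20, a reader in the MOF acetyltransferase complex, rose by 0.58 (SE 0.09). Cnot1, the scaffold of the CCR4-NOT complex that shortens mRNA tails, read 9.02, 9.02, 8.92 and 8.97 in trained rats, against 8.68, 8.67, 8.66 and 8.79 in sedentary rats, and its rise of 0.28 (SE 0.05) was the smallest among the called genes. Rbfox1, a splicing regulator of muscle and neurons, read 10.26, 10.24, 10.70 and 10.43 in trained rats, against 9.72, 9.66, 9.91 and 9.72 in sedentary rats, and rose by 0.65 (SE 0.10, adjusted p = 0.0465). Of its 5 other probe sets 3 had the same sign, and none reached an unadjusted p under 0.05 in that direction. Rfxank, a subunit of the RFX factor that drives MHC class II genes, rose by 0.40 (SE 0.07). The zinc finger gene Zfp532 rose by 0.62 (SE 0.10), Atxn1l, a paralog of ataxin 1, by 0.36 (SE 0.07) with both other probe sets opposite in sign, and the deubiquitinase Otud4 by 0.31 (SE 0.05).

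The remaining called genes had varied or less defined roles, and all of them rose. In the secretory pathway, Gnptab, which makes the mannose 6-phosphate tag of lysosomal enzymes, rose by 0.62 (SE 0.11), Trappc10, a subunit of a vesicle tethering complex, by 0.37 (SE 0.07), and Srprb, a subunit of the receptor for the signal recognition particle, by 0.32 (SE 0.06). Slc6a17, a vesicular amino acid transporter known from neurons, rose by 0.56 (SE 0.08, adjusted p = 0.0335), with 2 of its 4 other probe sets opposite in sign. Ncdn, neurochondrin, rose by 0.77 (SE 0.14), Tmcc2 by 0.74 (SE 0.12) and the hydrolase gene Abhd8 by 0.63 (SE 0.11). Pierce2, a protein of ciliary microtubules, rose by 0.79 (SE 0.15), Fam149b1 by 0.41 (SE 0.08), Tm2d1 by 0.41 (SE 0.08), RGD1359108 by 0.44 (SE 0.08) and C20h22orf15 by 0.30 (SE 0.05). LOC102547411, which has no assigned role here, read 7.92, 8.07, 8.62 and 7.72 in trained rats, against 6.63, 6.24, 6.57 and 6.80 in sedentary rats, and rose by 1.52 (SE 0.24, adjusted p = 0.0465). HCR trained 3 was the highest trained array in 24 of the 40 genes, and HCR sedentary 2 the lowest sedentary array in 22, all of which rose. Without both arrays all 40 had an unadjusted p under 0.05, with a median difference of 0.48 against 0.61 in the full set, and 6 passed, namely Cox7a1, Myh4, Tstd3, Iqsec1, Sc5d and Adcy6.

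Genes outside the called set were also separated widely. Of the 12 genes with the widest gap in the higher direction, Pvalb and Actn3 are fast fibre genes. Pvalb, the calcium buffer parvalbumin, read 8.94, 9.08, 13.80 and 7.82 in HCR trained rats, against 5.15, 7.05, 5.59 and 5.41 in HCR sedentary rats, a difference of 4.11 (SE 0.91, adjusted p = 0.0660). Actn3, the actinin of fast fibre Z discs, read 10.76, 11.10, 14.27 and 9.53 in trained rats, against 6.31, 9.02, 6.68 and 6.22 in sedentary rats, a difference of 4.36 (SE 0.92, adjusted p = 0.0632). As with Myh4, HCR trained 3 was the highest trained array and HCR sedentary 2 the highest sedentary array for both genes. Without these arrays both passed, Pvalb at 3.23 (adjusted p = 0.00203) and Actn3 at 4.06 (adjusted p = 0.0426). Since this removed the highest value of each group, it is not separate support. Fn3k, which removes sugar adducts from proteins, read 6.95, 7.11, 8.94 and 6.98 in trained and 5.94, 5.58, 5.98 and 6.10 in sedentary rats, with a difference of 1.59 (adjusted p = 0.0617). Me3, a mitochondrial malic enzyme, read 10.16, 10.44, 9.97 and 9.88 in trained and 8.83, 7.73, 9.18 and 9.36 in sedentary rats, with a difference of 1.34 (adjusted p = 0.0656). Neither Fn3k nor Me3 passed with all arrays, and Fn3k passed without the 2 arrays at 1.01 (adjusted p = 0.0137).

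In the lower direction the widest gap was at Ankrd1, at 5.87 to 6.22 in HCR trained and 7.16 to 12.87 in HCR sedentary rats, and its difference was -2.65 with all arrays and -1.32 without the 2 arrays and did not pass in either. Fos, an immediate early transcription factor, read 8.18, 8.45, 8.04 and 7.95 in trained rats, against 8.95, 10.01, 9.02 and 9.67 in sedentary rats, a difference of -1.26 (SE 0.32, adjusted p = 0.0910). Other genes of that class had negative differences too, with Sik1 at -0.54, Klf6 at -0.69 and Jun at -0.52, none of which passed. Of 27 measured immediate early genes 9 had an unadjusted p under 0.05 in the lower direction, where 5.79% of all genes did, and 8 did without the 2 arrays, where 5.02% did. Slc4a3, an anion exchanger, read 9.21, 9.04, 5.92 and 8.94 in trained and 10.22, 10.57, 10.04 and 9.61 in sedentary rats, so that 1 trained array lay far below the rest. Camk2b, a calcium and calmodulin dependent kinase, read 10.21, 9.18, 10.12 and 9.15 on 1 probe set in trained rats, against 11.19, 10.81, 11.28 and 10.55 in sedentary rats, a difference of -1.29 (adjusted p = 0.0773). On its brighter probe set the Camk2b difference was only -0.21. Cap2, an actin-binding protein, differed by -0.73 (adjusted p = 0.0807) without overlap, at 9.57 to 9.81 in trained and 10.07 to 10.67 in sedentary rats.

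Fibre type genes divided by the arrays that carried them. Of 20 measured fast fibre genes 1 passed, Myh4, where 0.225% of all genes did. At an unadjusted p under 0.05, 10 were higher, where 13.3% of all genes were. In 7 the groups did not overlap in that direction, where 6.13% of all genes did not. The mean of the 20, relative to the mean of the 8 arrays, lay between -0.0028 and 1.85 on the trained arrays, highest on HCR trained 3. On the sedentary arrays it lay between -0.78 and -0.47. Without HCR trained 3 and HCR sedentary 2, 8 of the 20 were higher at an unadjusted p under 0.05, where 14.2% of all genes were. In that setting 3 passed, where 0.155% of all genes passed, and the median was 0.15, against 0.42 with all arrays. Myoz3, a Z disc protein of fast fibres, read 10.44, 10.32, 10.96 and 10.90 in trained and 10.45, 9.03, 9.70 and 9.34 in sedentary rats, a difference of 1.03 (adjusted p = 0.0716). The abundant fast isoforms did not follow, with Myh2, the type IIA chain, at -0.08 (SE 0.15) and Myh1, the type IIX chain, at 0.15 (SE 0.11), and Tnni2, fast troponin I, at -0.01 (SE 0.39). Slow fibre genes had a median of -0.56 over 19 genes, of which 0 passed and 0 had an unadjusted p under 0.05, and without HCR trained 3 the median was 0.01. Tnnt1, slow troponin T, read 13.70, 13.58, 10.19 and 13.92 in trained rats, against 14.11, 13.77, 14.05 and 13.71 in sedentary rats, with HCR trained 3 far below the other 7.

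**Figure D3:**
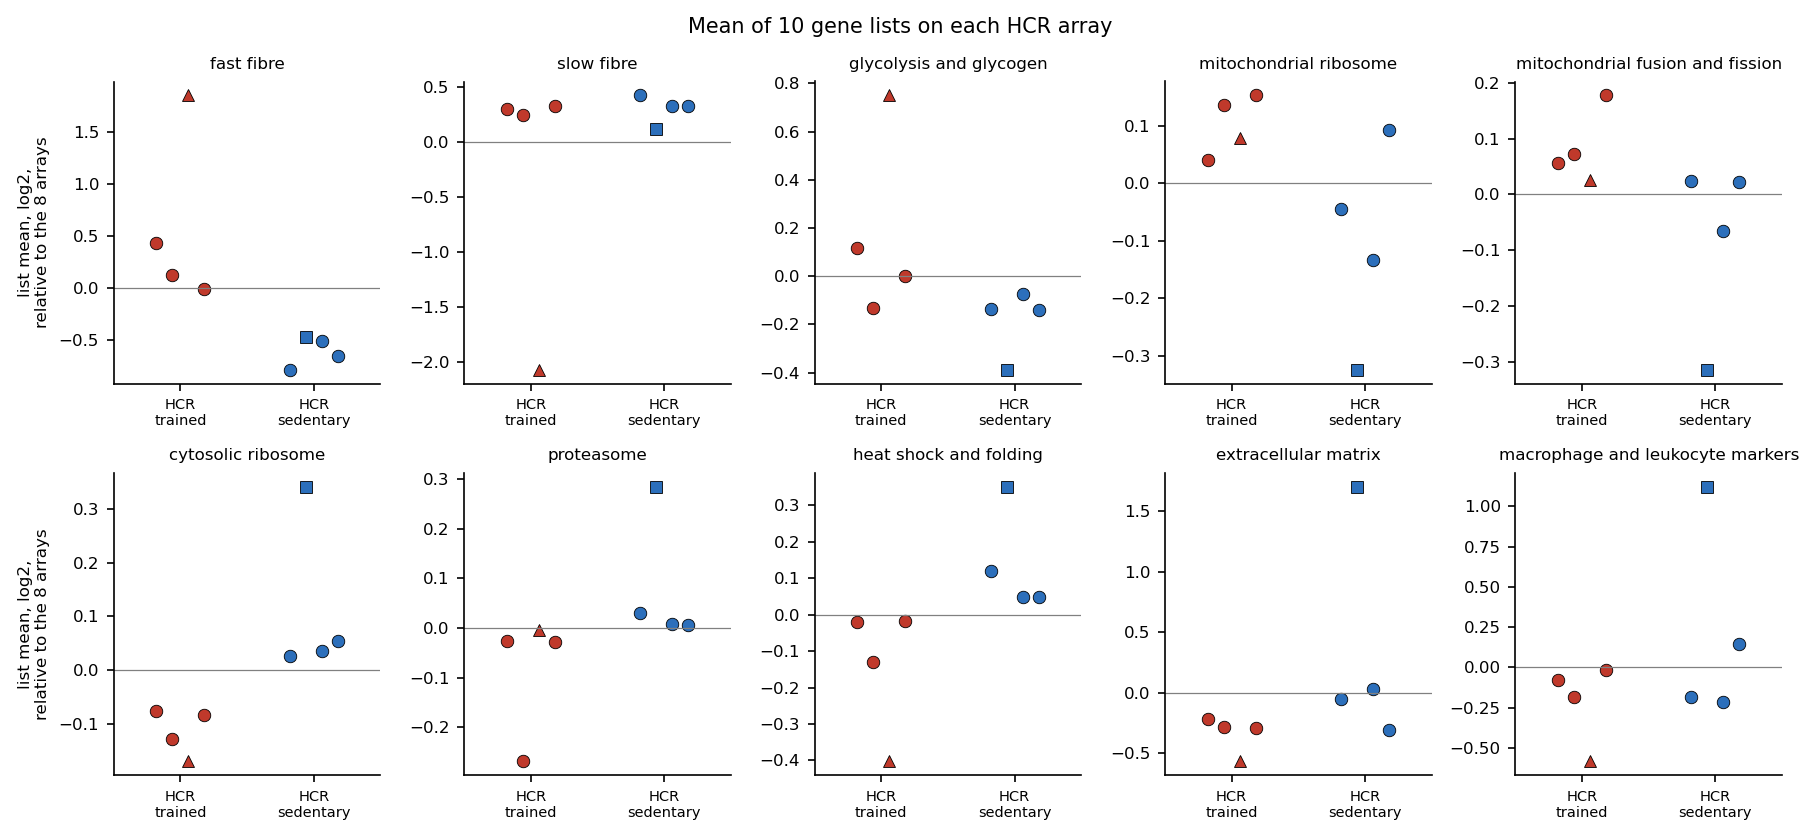
Mean of 10 gene lists on each HCR array (y axis, log2 units relative to the mean of the 8 arrays), with HCR trained arrays in red on the left and HCR sedentary arrays in blue on the right of each panel. The triangle is HCR trained 3, at 1.85 for fast fibre and -2.07 for slow fibre genes, and the square is HCR sedentary 2, at 1.70 for extracellular matrix and 1.12 for macrophage and leukocyte markers. The cytosolic ribosome panel shows trained arrays between -0.17 and -0.08 and sedentary arrays between 0.03 and 0.34.

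Protein synthesis and breakdown genes were lower in HCR trained rats as lists, although no single gene passed. All 46 measured cytosolic ribosomal protein genes had a negative difference, with a median of -0.23, and 30 had an unadjusted p under 0.05, where 5.79% of all genes did in the lower direction. In 25 of them the groups did not overlap, whereas 2.19% of all genes did not overlap in that direction. Rps6, a ribosomal protein phosphorylated downstream of mTOR, read 12.73, 12.71, 12.54 and 12.76 in trained rats, against 12.99, 13.22, 12.96 and 12.93 in sedentary rats, a difference of -0.34 (SE 0.08, adjusted p = 0.0807). Rps9 differed by -0.43 (SE 0.11, adjusted p = 0.0808) and Rps3 by -0.33 (SE 0.09). The median was -0.15 without HCR trained 3 and HCR sedentary 2, with 16 at an unadjusted p under 0.05, and -0.09 with the beta-actin index as covariate. Of 33 proteasome genes 15 were lower at an unadjusted p under 0.05, set against the same 5.79%, and 1 was higher, with a median of -0.15 that was -0.10 without the 2 arrays and -0.0029 with the beta-actin index as covariate. Psmd8, of the regulatory particle, read 10.07, 9.56, 9.76 and 9.83 in trained and 9.96, 10.61, 10.25 and 10.18 in sedentary rats, a difference of -0.44 (SE 0.12, adjusted p = 0.105). Heat shock and folding genes had a median of -0.31 over 31 genes, 11 of them lower at an unadjusted p under 0.05, again against 5.79% of all genes, and 0 higher. Dnajb4, a cofactor of Hsp70, differed by -0.60 (SE 0.18) and Hsp90ab1, a cytosolic Hsp90, by -0.34 (SE 0.10), and the list's median without HCR trained 3 was -0.12. Without the 2 arrays the list's median was -0.09, and 5 of 31 were lower at an unadjusted p under 0.05, where 5.02% of all genes were.

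Mitochondrial lists lay above 0 at small sizes. In the mitochondrial ribosome 66 of 73 genes had a positive difference, with a median of 0.20, and 33 had an unadjusted p under 0.05 in the higher direction and 0 in the lower, where 13.3% of all genes were at that level in the higher direction. Mrpl39, of the large subunit, read 7.75, 7.84, 8.35 and 7.80 in trained rats, against 7.25, 7.00, 7.34 and 7.42 in sedentary rats, a difference of 0.68 (SE 0.14, adjusted p = 0.0617). Mrps27 differed by 0.61 (SE 0.16) and Mrps11 by 0.41 (SE 0.11), both without overlap. For the list the groups of arrays overlapped, because HCR sedentary 4 had a mean of 0.09, above 2 of the 4 trained arrays. Without HCR trained 3 and HCR sedentary 2 the median was 0.14, with 12 of 73 at an unadjusted p under 0.05, where 14.2% of all genes were. Complex I, the entry of electrons from NADH, had a median of 0.22 over 34 genes. At an unadjusted p under 0.05, 17 of 34 were higher, set against the same 13.3% of all genes. Without the 2 arrays 2 of 34 were higher, a smaller share than the 14.2% of all genes, and 1 was lower. Ndufa12, a complex I subunit, differed by 0.38 (SE 0.11) and Ndufv3 by 0.56 (SE 0.18). The median of complexes II and III was 0.18 over 12 genes and that of ATP synthase 0.10 over 14. Each had 3 genes higher at an unadjusted p under 0.05, where 13.3% of all genes were. Without the 2 arrays the counts were 0 and 1, where 14.2% of all genes were higher. With the beta-actin index as covariate the medians were 0.03 for the mitochondrial ribosome, 0.01 for complex I, -0.04 for complexes II and III and -0.06 for cytochrome c oxidase.

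Regulators and dynamics of mitochondria gave a mixed picture. Ppargc1a, the coactivator PGC-1alpha, read 8.13, 7.63, 8.14 and 7.85 in trained rats, against 8.18, 7.13, 8.09 and 7.54 in sedentary rats, with overlap and a difference of 0.20 (SE 0.20) on its brightest probe set. Tfam, which packages and transcribes mitochondrial DNA, differed by 0.12 (SE 0.06) and Esrra, a nuclear receptor partner of PGC-1alpha, by 0.18 (SE 0.15). Fusion and fission genes had a median of 0.21 over 23 genes. Their array means only just failed to overlap, at 0.027 to 0.18 in trained and -0.31 to 0.024 in sedentary rats. Array means did not overlap in 7 of the 44 lists. Oma1, a protease that cleaves the fusion factor Opa1, read 7.64, 7.93, 8.02 and 8.12 in trained rats, against 7.36, 7.39, 7.22 and 7.54 in sedentary rats, a difference of 0.55 (SE 0.12, adjusted p = 0.0671). Of 23 such genes 7 were higher at an unadjusted p under 0.05, where 13.3% of all genes were, and 7 without the 2 arrays, where 14.2% were, while 0 passed in either. With the beta-actin index as covariate the list's median was 0.035. Genes of coenzyme Q synthesis and respiratory chain assembly had a median of 0.21, and of 0.0078 with the beta-actin index as covariate. At an unadjusted p under 0.05, 10 of 26 were higher, where 13.3% of all genes were. Without the 2 arrays 4 of 26 were, where 14.2% of all genes were. With all arrays Coq6, an enzyme of coenzyme Q synthesis, was among the 10, at 0.37 (SE 0.12).

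Fuel metabolism lists differed in how far they rested on the 2 arrays. Glycolysis and glycogen genes had a median of 0.38 over 30 genes, and of 0.12 without the 2 arrays. At an unadjusted p under 0.05, 11 were higher and 1 lower, where 13.3% and 5.79% of all genes were. Without the 2 arrays 5 were higher and 3 lower, where 14.2% and 5.02% of all genes were. Pgk1, phosphoglycerate kinase, read 12.54, 12.56, 12.96 and 12.62 in trained rats, against 12.33, 12.14, 12.37 and 12.35 in sedentary rats, a difference of 0.37 (SE 0.09, adjusted p = 0.0833). Pfkfb3, which raises the activator of phosphofructokinase, differed by 0.92 (SE 0.30), whereas Hk2, hexokinase 2, differed by -0.78 (SE 0.32). In amino acid breakdown 10 of 27 genes were higher at an unadjusted p under 0.05, where 13.3% of all genes were, and Auh passed. Without the 2 arrays 8 of 27 were higher at that level, where 14.2% of all genes were. Mcee, of the propionate pathway, read 9.38, 9.44, 9.37 and 9.42 in trained rats, against 8.76, 8.31, 8.89 and 9.02 in sedentary rats, a difference of 0.66 (SE 0.14, adjusted p = 0.0656). Gpt, alanine aminotransferase, differed by 0.63 (SE 0.17), with 9.34 to 9.99 in trained and 8.65 to 9.25 in sedentary rats. Fatty acid oxidation had a median of 0.23 over 27 genes, of which Pecr passed and 3 were higher at an unadjusted p under 0.05, no larger a share than the 13.3% of all genes. Its median was -0.10 without HCR sedentary 2 and -0.30 with the beta-actin index as covariate. Cpt1b, the muscle carnitine palmitoyltransferase, differed by -0.08 (SE 0.20) and Lpl, lipoprotein lipase, by -0.48 (SE 0.40), with Lpl at 10.52 on HCR trained 3 and the other 7 arrays between 12.01 and 13.02. Cs, citrate synthase, read 12.51, 12.45, 12.29 and 12.45 in trained rats, against 12.23, 11.67, 12.22 and 12.26 in sedentary rats, and did not pass at 0.33 (SE 0.11, adjusted p = 0.161).

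**Figure D4:**
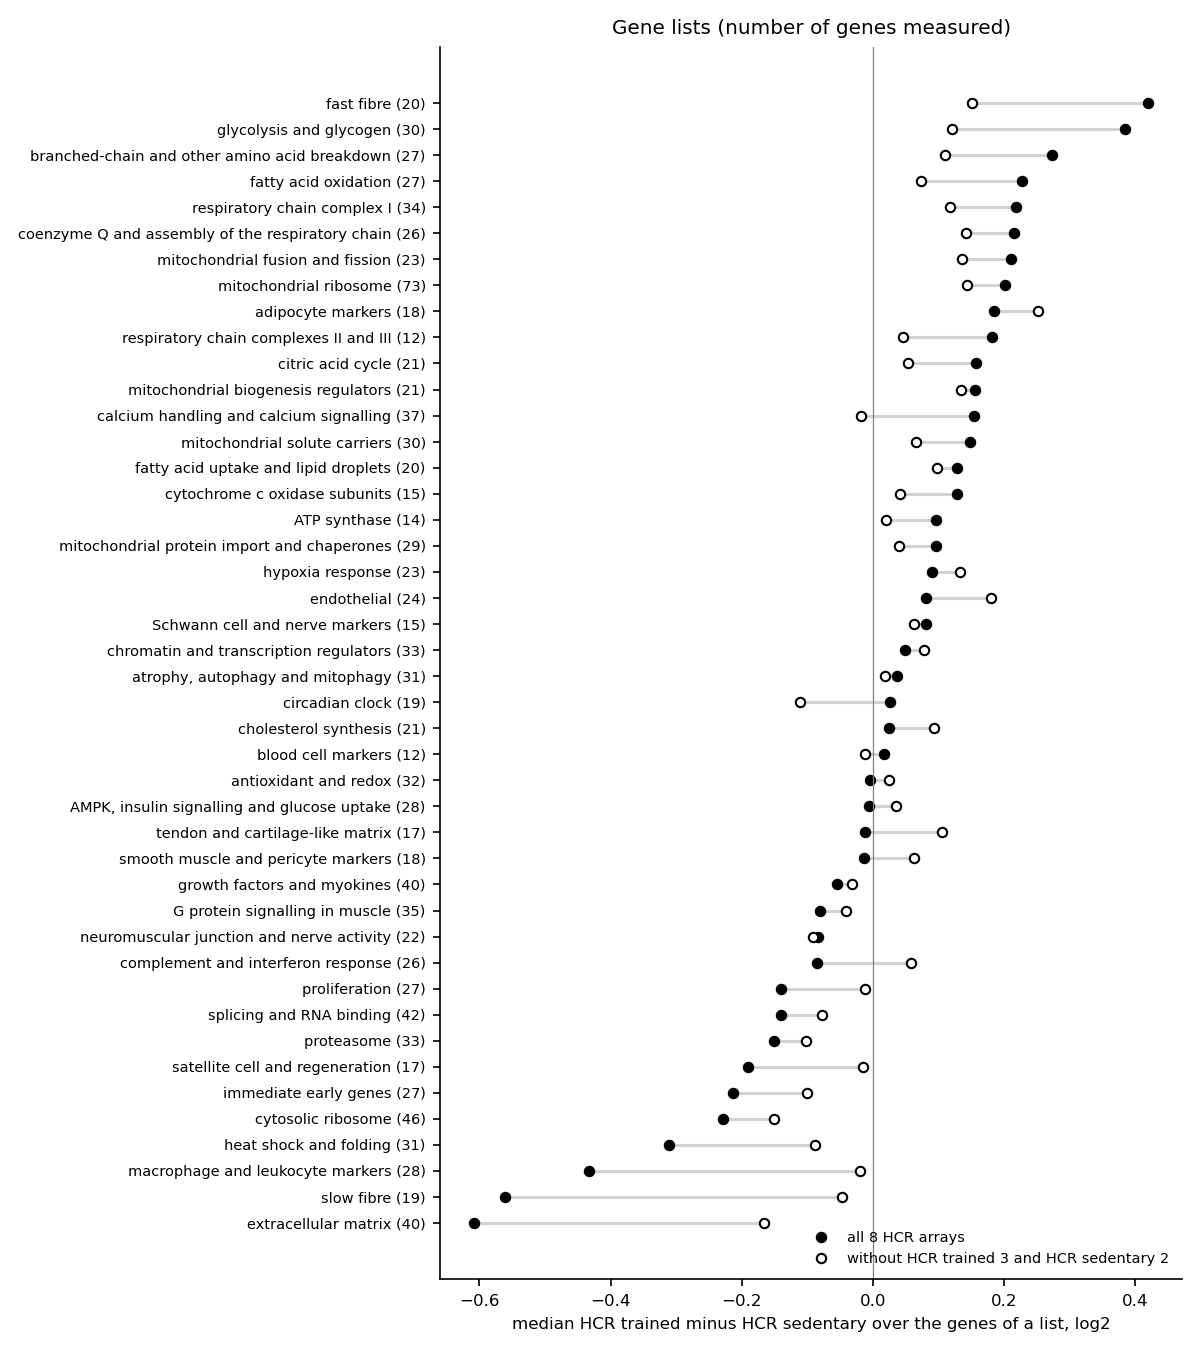
Median HCR trained minus HCR sedentary difference (x axis, log2 units) of 44 gene lists, 1 list a row with the number of measured genes in brackets, with all 8 HCR arrays (filled points) and without HCR trained 3 and HCR sedentary 2 (open points). Slow fibre genes lie at -0.56 with all arrays and -0.05 without the 2, extracellular matrix at -0.61 and -0.17, and cytosolic ribosome at -0.23 and -0.15.

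Matrix and macrophage lists moved mainly with HCR sedentary 2, and the medians of endothelial and adipocyte markers more with HCR trained 3, at 0.17 and 0.46 without it. Extracellular matrix genes had a median of -0.61 over 40 genes. At an unadjusted p under 0.05, 14 were lower and 0 higher, where 5.79% and 13.3% of all genes were. Col3a1, a fibrillar collagen, read 11.11, 11.09, 10.90 and 11.27 in trained rats, against 11.25 to 13.64 in sedentary rats, overlapping at HCR sedentary 4, with a difference of -1.17 (SE 0.44, adjusted p = 0.187). Without HCR trained 3 and HCR sedentary 2 the list's median was -0.17 and 0 of 40 reached an unadjusted p under 0.05 in either direction, and with the beta-actin index as covariate the median was 0.027. Macrophage and leukocyte markers had a median of -0.43, and of -0.02 without the 2 arrays. At an unadjusted p under 0.05, 6 of 28 were lower, where 5.79% of all genes were. Without the 2 arrays 2 of 28 were lower, where 5.02% of all genes were. Cd74, the MHC class II invariant chain, differed by -1.24 (SE 0.38), and its values were 9.80 to 10.28 in trained and 10.34 to 12.47 in sedentary rats. Endothelial markers had a median of 0.08 over 24 genes and 0.18 without the 2 arrays, with 3 and 7 genes higher at an unadjusted p under 0.05, where 13.3% and 14.2% of all genes were. Sox17, a transcription factor of arterial endothelium, read 8.54, 8.55, 7.61 and 8.04 in trained rats, against 7.61, 7.65, 7.80 and 7.69 in sedentary rats, overlapping at HCR trained 3, and differed by 0.50 (SE 0.17), while both of its other probe sets had the opposite sign. Vegfa, the main vascular growth factor of muscle, differed by 0.02 (SE 0.14). Markers of Schwann cells, smooth muscle and pericytes, adipocytes and blood cells had medians of 0.08, -0.01, 0.19 and 0.02, and 0 genes of any of these lists passed. Satellite cell and regeneration genes had a median of -0.19 and -0.02 without the 2 arrays. Myog, which drives differentiation of muscle precursors, read 9.61, 9.53, 7.57 and 9.98 in trained and 10.32, 10.60, 9.85 and 10.03 in sedentary rats, a difference of -1.03 (SE 0.39).

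Among genes of calcium signals, oxygen response and the nerve contact, no gene named here passed. Nfatc3, a transcription factor activated by calcineurin, read 9.02, 9.21, 9.23 and 9.08 in trained rats, against 8.73, 8.48, 8.81 and 8.93 in sedentary rats, a difference of 0.40 (SE 0.08, adjusted p = 0.0568). Rcan1, a calcineurin inhibitor that calcineurin itself induces, read 11.04, 10.39, 8.40 and 10.26 in trained and 10.85, 12.40, 11.54 and 11.61 in sedentary rats, with overlap and a difference of -1.58 (SE 0.42). Kdm3a, a histone demethylase induced by hypoxia, read 7.45, 7.41, 7.39 and 7.27 in trained rats, against 6.93, 6.89, 6.96 and 7.25 in sedentary rats, a difference of 0.37 (SE 0.07, adjusted p = 0.0538). Ndrg1, another gene of that response, differed by 0.31 (SE 0.07) without overlap. Of 23 hypoxia response genes 8 were higher and 0 lower at an unadjusted p under 0.05, where 13.3% of all genes were higher. Without the 2 arrays 3 of 23 were higher, no larger a share than the 14.2% of all genes. At the neuromuscular junction 7 of 22 genes were lower at an unadjusted p under 0.05, where 5.79% of all genes were, and 3 of 22 without the 2 arrays, where 5.02% were. Chrnd, a subunit of the acetylcholine receptor, differed by -1.24 (SE 0.50), and by -0.52 without HCR trained 3. Gadd45a, which responds to loss of nerve supply, differed by -1.12 (SE 0.45), and by -0.68 without the 2 arrays. Sod3, the extracellular superoxide dismutase, read 9.70, 9.43, 10.53 and 9.63 in trained rats, against 9.03, 8.90, 8.69 and 9.24 in sedentary rats, and did not pass at 0.86 (SE 0.20, adjusted p = 0.0742). Ulk1, a kinase that starts autophagy, differed by 0.51 (SE 0.11), with 8.93 to 9.12 in trained and 8.23 to 8.86 in sedentary rats (adjusted p = 0.0671).

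Whether the response of HCR soleus differed from that of LCR soleus was tested as an interaction. With all arrays 0 probe sets, or 0%, passed in limma's test, while 5673, or 18.3%, had an unadjusted p under 0.05. Training in LCR rats changed 1 probe set, that of Cox7a1, which is 0.00322% of those tested. Cox7a1 read 8.63, 8.19, 8.19 and 8.29 in LCR trained soleus, against 6.81, 7.12, 6.74 and 5.94 in LCR sedentary soleus, and rose by 1.67 (SE 0.22, adjusted p = 0.0465). The responses of the 2 lines in Cox7a1 differed by 0.32 (SE 0.31, unadjusted p = 0.306). The other 39 called genes had an unadjusted p under 0.05 for the difference between lines, which follows in part from choosing them by their HCR values, and none passed. Of all 40, 22 had the same sign in LCR, with a median LCR difference of 0.04. In LCR 8 had an unadjusted p under 0.05, of which 5, Cox7a1, Atp2b3, Egf, Sc5d and Tstd3, had the same sign as in HCR and 3, C20h22orf15, Cnot1 and Trappc10, the opposite sign.

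**Figure D5:**
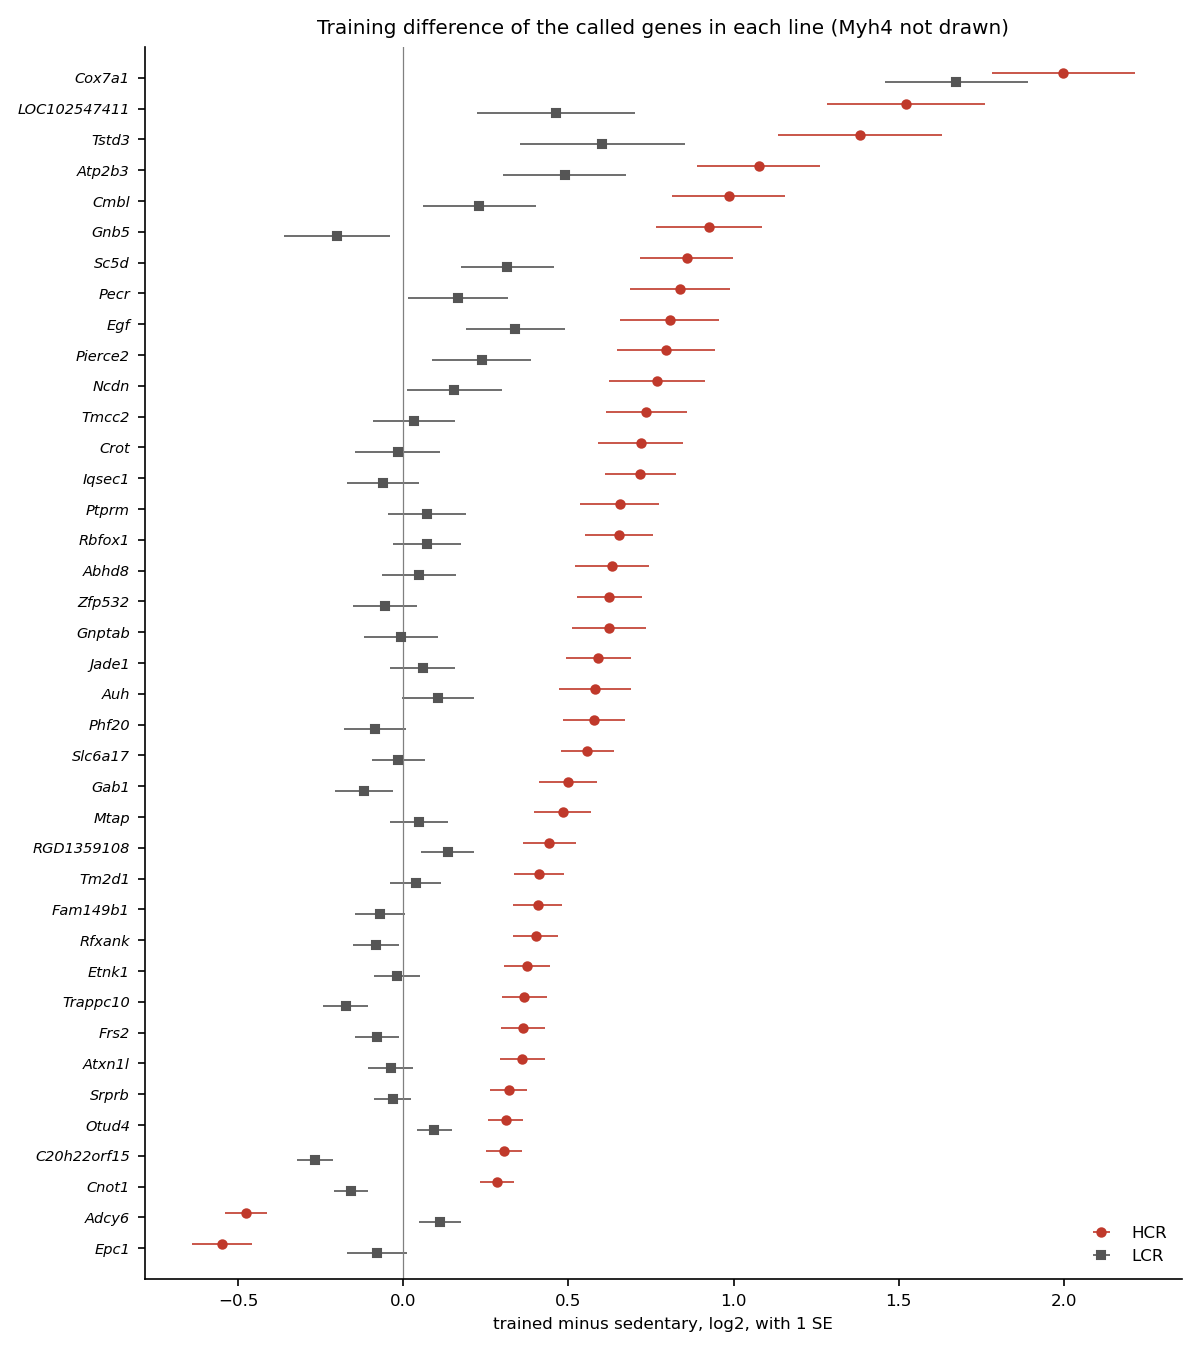
Trained minus sedentary difference (x axis, log2 units, bars 1 SE) of 39 of the 40 genes called in HCR, in HCR (red circles) and in LCR (grey squares), with Myh4 not drawn. Cox7a1 differs by 2.00 in HCR and 1.67 in LCR, and most other squares lie near 0.

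Genes with the smallest interaction p included 3 called genes, Adcy6, C20h22orf15 and Cnot1. The Adcy6 response was -0.48 in HCR and 0.11 in LCR, a difference of -0.59 (SE 0.09, adjusted p = 0.0801). C20h22orf15 rose in HCR, and its LCR difference was -0.27, with a difference between responses of 0.57 (SE 0.08, adjusted p = 0.0801). Pmp22, a myelin and membrane protein, differed by -0.69 in HCR and 0.57 in LCR on 1 probe set, while on its brighter probe set the values were -0.10 and 0.11. Usf2, a transcription factor that binds E-boxes, read 5.71, 5.85, 5.96 and 5.83 in HCR trained and 5.52, 5.36, 5.55 and 5.52 in HCR sedentary rats, with differences of 0.35 in HCR and -0.29 in LCR. Without HCR trained 3 and HCR sedentary 2, 22 probe sets, or 0.0709%, passed the interaction test, Myh4 among them, with a difference between responses of 4.68 (adjusted p = 0.0274).

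Lists with many genes at an unadjusted interaction p under 0.05 were the extracellular matrix, the mitochondrial ribosome and the cytosolic ribosome. In the matrix 32 of 40 genes had a response below that of LCR at this level, where 5.96% of all genes did. The median matrix difference was -0.61 in HCR and 0.68 in LCR. Without HCR trained 3 and HCR sedentary 2, 22 of 40 genes were at this level, where 4.98% of all genes were. In that setting the matrix median was only -0.17 in HCR and still 0.68 in LCR. For training in HCR alone, 0 of the 40 were then lower at an unadjusted p under 0.05. Macrophage and leukocyte markers, whose median was -0.43 in HCR and 0.51 in LCR, had 13 of 28 genes below LCR at this level and 8 without the 2 arrays. Without the 2 arrays their median was -0.02 in HCR and still 0.51 in LCR. In the mitochondrial ribosome 29 of 73 responses were above those of LCR, against 13.1% of all genes, and 18 without the 2 arrays, against 14.7%. The medians were 0.20 in HCR and -0.06 in LCR. For coenzyme Q and assembly genes 11 of 26 were above LCR with and without the 2 arrays. Cytosolic ribosomal genes had 18 of 46 below LCR, with medians of -0.23 in HCR and -0.01 in LCR, and 5 of 46 without the 2 arrays, and proteasome genes had 11 of 33 and 10 of 33 below LCR.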

How the data were processed

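Total RNA of each soleus was hybridised to 1 single-colour oligonucleotide array. The deposited values are log2 signals per probe set, and RMA, which corrects background, normalizes arrays by quantiles and summarises probes, is named in the submitters' processing notes, as is limma, with no version. From these log2 values, group means of all 16 arrays were fitted with limma 3.58.1 in R 4.3.3, so that the 4 groups shared 1 estimate of spread (12 residual degrees of freedom). Contrasts were training in HCR, training in LCR and their difference. P-values were adjusted by Benjamini-Hochberg over 31042 probe sets, and passing means an adjusted p under 0.05. A gene in a list is its brightest probe set. A single gene symbol was available for 20826 probe sets, several for 436 and none for 9780. The fit was tested on simulated data.

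The text names all called genes, up to 4 genes of smallest p per direction in each of 44 lists, a fixed set of training and fibre genes, the 12 widest gaps between groups per direction, the 6 smallest interaction p-values per direction, and the 8 genes per direction that set HCR trained 3 or HCR sedentary 2 furthest apart, and it describes only part of these. The members and lists were chosen with earlier results of these data known. The precision is limited by 4 arrays per group. Alternatives were other normalizations, filters, covariates, weights and left-out arrays.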

Additional observations from a re-analysis of the deposited data

Results flagged for a closer look

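Single arrays far from the other 3 of their group were looked for in 107 probe sets named above, in the means of 44 lists and in both control indices. Dixon's test at the 95% level marked 47 of 306 group values, where chance marks about 1 in 20. The counts cannot be read against that rate, because some of the genes were named for setting HCR trained 3 or HCR sedentary 2 apart, and these arrays were already known to differ. Of these, 23 were on HCR sedentary 2, 15 on HCR trained 3 and 9 on other arrays.

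On HCR trained 3 the marked genes were Camk2b at 10.92 on its brighter probe set, Chrnd at 6.36, Fn3k at 8.94, Lpl at 10.52, Mrpl39 at 8.35, Mybpc2 at 10.08, Myh7 at 12.05, Pecr at 9.54, Slc4a3 at 5.92, Slc6a17 at 5.18, Sln at 7.59 and Tnnt1 at 10.19. Its list means, relative to the 8 arrays, were -2.07 for slow fibre, -0.47 for neuromuscular junction and -0.59 for satellite cell and regeneration genes.

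On HCR sedentary 2 the marked genes were Abcd2 at 5.32, Abhd8 at 6.85, Actn3 at 9.02, Ankrd1 at 12.87, Cd44 at 9.30, Cpt1b at 11.42, Cs at 11.67, Esrra at 8.93, Myh4 at 8.03, Pgk1 at 12.14, Trappc10 at 7.61 and Vcan at 9.44. Its list means were low for respiratory chain complexes II and III at -0.49, ATP synthase at -0.32, the citric acid cycle at -0.53, fatty acid oxidation at -0.92, fatty acid uptake and lipid droplets at -0.78, amino acid breakdown at -0.61 and adipocyte markers at -0.62. They were high for the cytosolic ribosome at 0.34, extracellular matrix at 1.70, proliferation at 0.52 and the proteasome at 0.28.

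On other arrays the marks were C20h22orf15 at 6.40, Cd44 at 6.01 and Cd74 at 10.28 on HCR trained 1, Rfxank at 7.80 on HCR trained 2, Epc1 at 5.88 on HCR trained 4 and Slc6a17 at 4.58 on HCR sedentary 1. The proteasome mean was -0.27 and that of tendon and cartilage-like matrix 0.28 on HCR trained 2, and the GAPDH index was 0.73 on HCR sedentary 4.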

How the results depend on the processing

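The count of 58 probe sets ranged from 1 to 454 when any 1 HCR array was left out. It was 29 without HCR trained 3 and HCR sedentary 2, 29 with trend and robust moderation, 35 without dim probe sets, 255 with median centring, 1304 with array weights, 5 with the GAPDH index and 1 with the beta-actin index as covariate, 3 with quantile normalization, and 0 both with the HCR arrays alone and for a change of at least 1.5-fold in limma's treat, where 3981 and 94 had an unadjusted p under 0.05. Without HCR trained 2, HCR trained 3 and HCR sedentary 2, a setting chosen after seeing the data, it was 21. The interaction count of 0 ranged from 0 to 185 when 1 HCR array was left out, and was 22 without both arrays, 233 with array weights, 1 with quantile normalization, 1 with median centring and 1 in the added setting. The HCR arrays alone give no interaction. Cox7a1 did not pass with the HCR arrays alone (2.00, adjusted p = 0.0545), with the beta-actin index (1.96, adjusted p = 0.119) or for a change of at least 1.5-fold (2.00, adjusted p = 0.164). The cause of these changes was not tested.

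The labels do not say whether the replicate numbers pair the rats, and these values cannot settle it. Deviations of same-numbered trained and sedentary arrays correlated at 0.11, -0.08, 0.13 and 0.07, and 1 of 4 numbers correlated best with itself. With the replicate block 2 probe sets passed, the interaction count was 0, and Cox7a1 was at 2.00 (adjusted p = 0.0392).

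No called gene changed sign, which for left-out arrays had to be so because the groups did not overlap. Signs turned for the following genes, none of which had passed. With the beta-actin index these were Cd44 at 0.070, Hk2 at 0.034, Myh2 at 0.041, Plin5 at -0.35, Tnni2 at 0.42, Vcan at 0.53 and Vegfa at -0.033. Without both arrays they were Esrra at -0.028, Mybpc2 at -0.22, the brighter Pmp22 probe set at 0.14, Ppargc1a at -0.065, Sln at 0.12 and Vegfa at -0.098. With array weights they were Mybpc2 at -0.022, Pmp22 at 0.073, Ppargc1a at -0.029 and Vegfa at -0.12. In the added setting they were Mybpc2 at -0.27, Myh2 at 0.013, Pmp22 at 0.092, Sln at 0.098 and Vegfa at -0.13. Tnni2 was at 0.017 with median centring and 0.22 with the GAPDH index. Leaving out 1 array gave ranges that crossed 0 for Cpt1b (-0.31 to 0.11), Lpl (-0.72 to 0.086), Mybpc2 (-0.36 to 1.29), Plin5 (-0.016 to 0.82), Pmp22 (-0.18 to 0.025), Tnni2 (-0.37 to 0.28) and Vegfa (-0.043 to 0.085). Scan dates and batches were not analysed here.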
